A study of Mus musculus with 35 samples.

Results

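The binding regions described here lie at microRNA precursors of mouse P19 cells, a pluripotent embryonal carcinoma line. Cross-link clusters of 8 proteins were merged into 388969 regions, and the 429 regions that overlapped an annotated microRNA gene on the same strand, or lay within 100 nt of one, were kept. Of these, 97 overlapped the gene, which is annotated as the hairpin, by at least a few bases and may extend into its flanks, and 332 lay only in the flanks. They belonged to 302 of the 1577 microRNA genes in the annotation. Each protein carried a GFP tag, was expressed from a bacterial artificial chromosome in a stable, sorted P19 line, and was immunoprecipitated through the tag after UV cross-linking of living cells (iCLIP). The groups were NXF1, the mRNA export receptor, with 3 libraries, and the SR proteins SRSF1 (4 libraries), SRSF2 (5), SRSF3 (3), SRSF4 (3), SRSF5 (4), SRSF6 (3) and SRSF7 (6), against a control of GFP with a nuclear localisation signal that was deposited as 1 pooled profile. All cells were untreated, every library carried the same kind of tag, and the proteins were expressed in separate clonal lines, so that a difference in RNA level between lines and a difference in binding cannot be told apart. By their headers all SRSF2, SRSF5 and SRSF6 libraries ran in 2013 and all SRSF1, SRSF3, SRSF4 and NXF1 libraries in 2014. SRSF7 replicates 1 to 3 ran in 2013 and 4 to 6 in 2014, these with the lane label of all NXF1 libraries. Between proteins of different run years, run and protein cannot be told apart.

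The unit of every value is the tag, a distinct cDNA whose end marks a cross-linked base, and only positions that had passed the authors' false discovery rate are listed. A value of 0 therefore means that no position was listed. Totals of listed tags ran from 13038 to 4459523 per library (median 237488), and 6 libraries, which were SRSF1 replicate 4, SRSF2 replicates 1 and 3 and SRSF7 replicates 1, 3 and 5, held fewer than 50000 tags. In those libraries a few tags give a large CPM, the number of tags scaled to a common library total. The profiles labelled SRSF2 replicates 2 and 5 name SRSF1 in their own headers. They were kept in the labelled group, and results that rest on them are given with and without them. All 9 markers of P19 cells had tags, at a summed 0 to 2906 CPM per library (median 963), with Dppa5a and Zfp42 at only 3 and 9 tags in all, whereas markers of neurons, heart muscle, endoderm and fibroblasts summed to at most 47.8 CPM and Sox17, Actc1 and Nppa were at 0.

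A microRNA is cut from its primary transcript in the nucleus by the Microprocessor, in which Drosha cleaves near the base of a hairpin that DGCR8 helps to recognise, and the freed hairpin is exported and cut again at its loop by Dicer. One of the resulting arms, called 5p or 3p after its side of the hairpin, is loaded into Argonaute and pairs with targets through its seed, the bases 2 to 8. Many hairpins are transcribed together, and pluripotent mouse cells are known for 2 such clusters, Mir290 to Mir295 and Mir302b to Mir367, which promote rapid cell division, beside the Mir17 clusters and the let-7 family, whose maturation Lin28a blocks. SR proteins are splicing factors with known contacts to this pathway: in human cells SRSF1 promotes the cleavage of pri-miR-7, and SRSF3 reads a CNNC motif downstream of the hairpin (C is cytosine, N any base).

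The mature sequences of the microRNAs that the results turn on are given here because they show which hairpins share a seed, printed in capitals. The sequences are RefSeq entries of GRCm38.p6, written 5′ to 3′. The first group carries the seed of the pluripotency clusters, AAGUGCU, and miR-302c-3p carries the same letters 1 base earlier.

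mmu-miR-302b-3p: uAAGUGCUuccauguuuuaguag
mmu-miR-302d-3p: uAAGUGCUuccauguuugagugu
mmu-miR-291a-3p: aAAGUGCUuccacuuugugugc
mmu-miR-294-3p: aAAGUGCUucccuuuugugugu
mmu-miR-295-3p: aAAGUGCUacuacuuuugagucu
mmu-miR-302c-3p: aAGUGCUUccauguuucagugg

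The Mir17 clusters on 3 chromosomes carry the related seed AAAGUGC on their 5p arms, and miR-18a, miR-19b and miR-367 lie in the same polycistrons as members of either group.

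mmu-miR-17-5p: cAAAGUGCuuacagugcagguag
mmu-miR-20a-5p: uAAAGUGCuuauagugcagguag
mmu-miR-20b-5p: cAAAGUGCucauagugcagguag
mmu-miR-93-5p: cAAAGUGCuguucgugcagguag
mmu-miR-106a-5p: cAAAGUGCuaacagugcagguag
mmu-miR-106b-5p: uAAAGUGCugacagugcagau
mmu-miR-18a-5p: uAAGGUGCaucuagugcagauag
mmu-miR-19b-3p: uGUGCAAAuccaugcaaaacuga
mmu-miR-367-3p: aAUUGCACuuuagcaaugguga

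The last group holds microRNAs outside these clusters whose regions passed a test below, and none of its seeds is shared except that of miR-15b and miR-16.

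mmu-miR-15b-5p: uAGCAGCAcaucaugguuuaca
mmu-miR-16-5p: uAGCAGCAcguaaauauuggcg
mmu-let-7a-5p: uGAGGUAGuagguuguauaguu
mmu-miR-410-3p: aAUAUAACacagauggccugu
mmu-miR-485-3p: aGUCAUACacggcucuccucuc
mmu-miR-495-3p: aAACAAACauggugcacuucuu

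Not every annotated microRNA gene behaved like a precursor. RefSeq holds an entry for 540 of the 1577 genes, and 327 of the 429 regions lay at these, with 163688 tags over the 31 libraries and 6 tags, at 2 regions, in the control. The 102 regions at genes without a RefSeq match held 92302 tags, and 590 control tags fell on 11 of them. The region at AC113316.1, inside an intron of Cdk8 (chr5:147072555-147072915), alone had 53383 tags and 302 control tags, at 10349 to 12974 CPM in the NXF1 libraries and 328 to 15617 CPM in the SR libraries. The 25 bases that run downstream from its tallest position occur at 2 places in the genome. The flank of mmu-mir-2134-4 on chromosome 13 had 15883 tags and 138 control tags, and its 25 bases occur at 4 places. These unmatched regions are included in the counts of regions and in the distances below. They are left out of the sums over RefSeq-matched genes and of the positions relative to mature sequences.

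Flank regions nearest the hairpins had the most tags by median. Distance was taken to the nearest edge of a region, so that its tags may lie farther out. Flank regions that began 1 to 10 nt from the gene numbered 129 and had a median of 100 tags, those at 11 to 20 nt numbered 58 with a median of 37.5 tags, and those at 51 to 90 nt numbered 45 with a median of 8 tags. Just inside the limit of the selection, at 91 to 100 nt, 14 regions had a median of 3.5 tags, and just outside it, in the next 10 nt, 15 regions had a median of 6 tags. Summed over the regions at RefSeq-matched genes, NXF1 libraries held 2300 to 6223 CPM and the SR libraries 1611 to 18128 CPM, so that the ranges overlap.

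The Mir302b to Mir367 cluster, which lies on chromosome 3 with no annotated host gene on its strand, was the place where NXF1 stood out. Counted within 100 nt of its hairpins, it held 953.6 ± 398 CPM in the NXF1 libraries (SD, n = 3), and 18 ± 26.1 CPM for SRSF2 (n = 5), 56.1 ± 48.4 for SRSF6 (n = 3), 76.4 ± 94.4 for SRSF4 (n = 3), 145 ± 74.1 for SRSF3 (n = 3), 156 ± 270 for SRSF5 (n = 4) and 168 ± 142 for SRSF1 (n = 4). SRSF7 averaged 1184 ± 1824 CPM (n = 6), with a median of 166 CPM and a maximum of 4398 CPM in a library with fewer than 50000 tags. In all 8 proteins every listed tag of this cluster lay inside an annotated hairpin, and the control had no tag there.

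**Figure D1:**
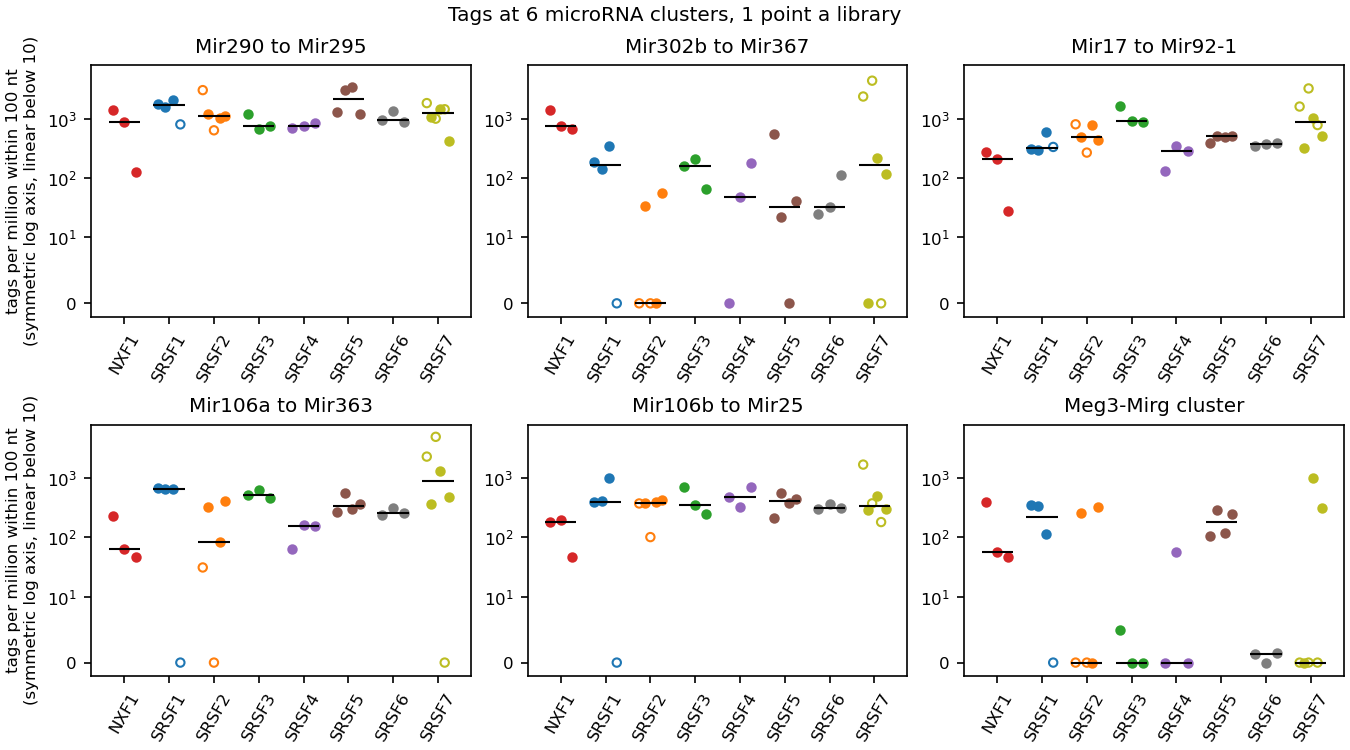
CPM within 100 nt of the hairpins of 6 microRNA clusters (vertical axes, symmetric log scale) by protein (horizontal axes), with 1 point for each library, open points for libraries with fewer than 50000 listed tags, and a bar at the median. The 3 NXF1 libraries lie between 681 and 1411 CPM at Mir302b to Mir367, where the medians of the SR proteins are at or under 166 CPM, and SRSF3 and SRSF6 lie at or under 4.89 CPM at the Meg3-Mirg cluster.

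Of the 429 regions, 79 had enough tags to be tested (at least 42.1 CPM in 3 libraries and 15 tags in all), 59 of them at RefSeq-matched genes, among 6649 tested regions of the transcriptome. In the comparison of NXF1 with the mean of the 7 SR proteins, 10 microRNA regions were higher, against 10.1% of all tested regions, and 6 were lower, against 1.64%. The median log2 difference was −0.74 over the 79 regions and −1.03 over all 6649. The share of higher calls, 10 of 79, is thus close to the background. Among all called regions 86.0% were higher, and with coding-exon totals as the scale 96.6%. Under the other scalings tried, trimmed-mean and coding-exon totals, 0 microRNA regions were lower with NXF1, whereas limma-trend called 11 higher and 20 lower and matched depth 8 higher and 13 lower.

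Mir302a (chr3:127248441-127248482), a hairpin of the same seed family, had 493, 378 and 322 CPM in the NXF1 libraries, against a lowest of 0, a median of 3.65 and a highest of 795 CPM in the 28 SR libraries, 16 of which had a tag. Only SRSF7 replicate 3, with 34 tags, exceeded the lowest NXF1 library. The log2 difference was 5.15 ± 1.03 (SE, limma adjusted p = 0.000796), and this call was kept without any single library and under all 12 other settings tried for it. Mir302b (chr3:127248177-127248219) had 400, 264 and 193 CPM with NXF1 and 0 to 1941 CPM (median 4.32) with the SR proteins, a log2 difference of 4.33 ± 1.16 (limma adjusted p = 0.0112). SRSF1 replicate 3 and SRSF7 replicates 1 and 3 lay above the lowest NXF1 library. Mir302b lost the call without NXF1 replicate 1 (limma adjusted p = 0.0831) or replicate 2 (0.0619). Mir302d (chr3:127248569-127248607) had 261, 128 and 166 CPM with NXF1, whereas 18 of 28 SR libraries had no tag and the highest had 1661 CPM, a log2 difference of 6.01 ± 1.45 (limma adjusted p = 0.00481). The Mir302d call was kept without any single library but not with replicate numbers as a block (limma adjusted p = 0.0503). The 25 bases that run downstream from the tallest position of the Mir302d region occur at 2 places in the genome.

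The other regions that were higher with NXF1 were not at canonical precursors. AC127323.1, a gene without a RefSeq match on chromosome 18, had 1288, 1297 and 3358 CPM with NXF1 and 0 to 1550 CPM (median 73.0) with the SR proteins, and its call (log2 difference 4.23 ± 0.73, limma adjusted p = 0.000154) was never lost. SRSF4 replicate 3 alone lay above the lowest NXF1 library. A region 90 nt downstream of AC129217.1, which RefSeq names Mir5136, lies in the exon of SNORA57, a small nucleolar RNA, so that tags of the microRNA transcript and of that RNA cannot be told apart. It had 362, 299 and 258 CPM with NXF1 and at most 138 CPM (median 30.7) with the SR proteins, and the groups did not overlap (log2 difference 2.91 ± 0.64, limma adjusted p = 0.00200, and 0.0520 with no CPM minimum). A second region at the Mir5136 hairpin, AL596215.1 (Mir5100), and the unmatched AC154124.1, AL844840.2 and mmu-mir-689-2 made up the remaining calls, at log2 differences of 1.81 to 3.59. The AL596215.1 call was lost without NXF1 replicate 1 or 3 (limma adjusted p = 0.0870 and 0.202) and the AC154124.1 call without NXF1 replicate 1 (0.0542). Of these regions, AC154124.1, AL844840.2, mmu-mir-689-2 and AL596215.1 had control tags, 17, 4, 39 and 3.

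Of the 6 regions lower with NXF1, 2 lay in the Mir17 clusters, of 13 tested there, and 1 in the Mir290 to Mir295 cluster. The flank of Mir290 (chr7:3217833-3218625) had 227, 64.1 and 0 CPM with NXF1 and 0 to 947 CPM (median 345) with the SR proteins (log2 difference −2.81 ± 0.80, limma adjusted p = 0.0180). The region between the Mir93 and Mir25 hairpins, inside an exon of Mcm7 and named after Mir93 below, had 25.3, 28.5 and 0 CPM with NXF1. The SR proteins had 0 to 322 CPM there (median 103; −2.47 ± 0.65, limma adjusted p = 0.00982). The region across the 3′ end of Mir20a, also a 5′ flank of Mir19b-1, had 131, 99.7 and 9.20 CPM and 0 to 867 CPM (median 248; −1.97 ± 0.60, limma adjusted p = 0.0268). Each of these groups overlapped. The Mir290 call was lost without NXF1 replicate 2 or 3 (limma adjusted p = 0.0597 and 0.379), the Mir93 call without any of the 3 NXF1 replicates (0.0632 to 0.0884) and the Mir20a call without replicate 3 (0.367). Regions at Mir330, at the unmatched AL954710.1 and at Mirlet7a-1 were lower too, the last with a limma adjusted p of 0.0488 that missed the threshold in 23 of 31 leave-one-out fits. The AL954710.1 call was lost without NXF1 replicate 1 or 3 (limma adjusted p = 0.341 and 0.0914).

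**Figure D2:**
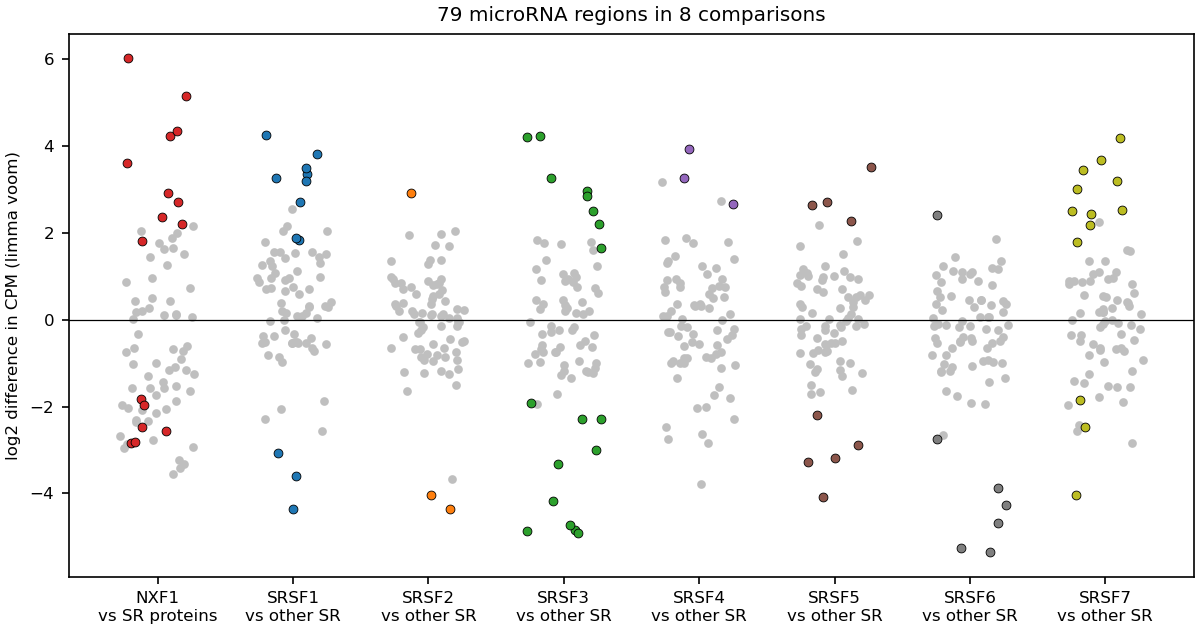
Log2 difference in CPM (vertical axis, limma voom) of the 79 tested microRNA regions in 8 comparisons (horizontal axis), NXF1 against the SR proteins and each SR protein against the other 6, with regions past an adjusted p of 0.05 coloured and the rest grey. The 3 highest points of the NXF1 column are Mir302d at 6.01, Mir302a at 5.15 and Mir302b at 4.33.

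At the Mir302 hairpins NXF1 was listed at the opposite end of the 3p sequence from SRSF1, SRSF2, SRSF3, SRSF6 and SRSF7. Both mature sequences were located in 4 genes of the cluster, Mir302b, Mir302c, Mir302d and Mir367. There 263 of 312 NXF1 tags fell at the first base of the 3p sequence or the 2 loop bases before it. Within 1 base of its last base lay 0 NXF1 tags. Tags called at the first base from here on lie in that same window, which includes the 2 bases before. The first-base counts of NXF1 by library were 184 of 218, 44 of 55 and 35 of 39. For SRSF1, 158 of 187 tags lay within 1 base of the last base of the 3p sequence, near the base of the hairpin, and 0 at its first. The same held for SRSF2 (154 of 169 tags), SRSF3 (353 of 423), SRSF6 (271 of 306) and SRSF7 (446 of 598), each with 0 at the first base, in every library of these proteins that had tags there. The SRSF2 tags all came from the replicates 2 and 5 whose headers name SRSF1.

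SRSF4 and SRSF5 did not follow the other SR proteins. SRSF4 had 10 of 19 tags at the first base of the 3p sequence and 0 at the last. SRSF5 replicate 1 had 31 of 43 tags at the first base and 0 at the last, whereas SRSF5 replicate 4 had 0 of 21 at the first and 20 at the last. Replicates 1 and 4 of SRSF5 thus lay at opposite ends of the 3p sequence.

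For Mir302a only the 5p sequence was located, and positions are counted from 1 at the first base of the annotated hairpin. NXF1 had 160 of 205 tags at bases 42 to 44 and 0 at bases 65 and 66, whereas SRSF7 had 253 of 713 tags at bases 65 and 66 and 0 at bases 42 to 44. SRSF3 had 102 of 224 tags at bases 65 and 66, and SRSF4 had 51 of 70 at bases 42 to 44.

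**Figure D3:**
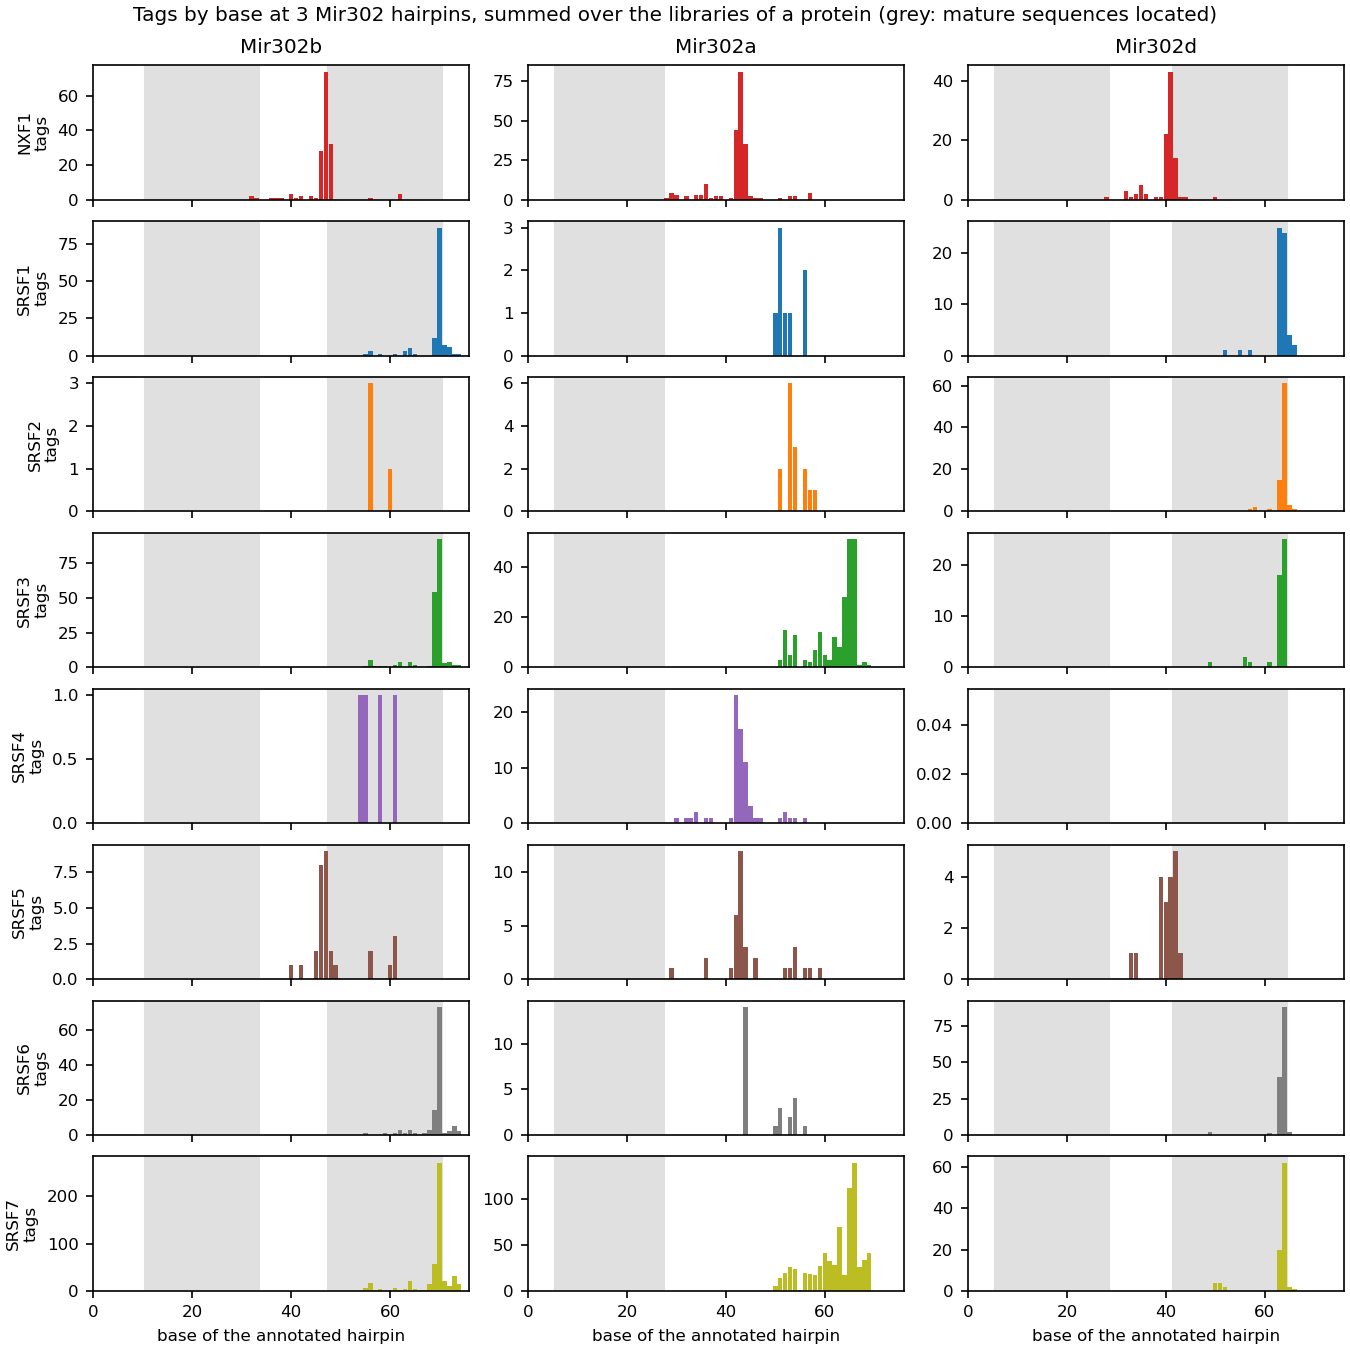
Tags by base (vertical axes, summed over the libraries of a protein, scaled separately) along the annotated hairpins of Mir302b, Mir302a and Mir302d (horizontal axes, base 1 is the first of the hairpin), with located mature sequences in grey. NXF1 peaks at the loop side of the 3p sequence, as SRSF5 does in sum, and SRSF1, SRSF3, SRSF6 and SRSF7 peak at its far end in Mir302b and Mir302d.

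The same comparison over all precursors gave the same picture at lower contrast. Both mature sequences were located in 361 genes, of which 197 had tags within 100 nt, 107568 in all and 0 in the control. NXF1 had 328 of 1331 tags at the first base of a 3p sequence or the 2 bases before it, and 0 at the last base. By library the first-base counts were 238 of 892, 44 of 342 and 46 of 97. Among the SR proteins such tags numbered 31 for SRSF5, all in replicate 1, and 21 for SRSF4, all in replicate 2. SRSF2 had 18, all in the replicates 2 and 5 whose headers name SRSF1. SRSF7 had 9, SRSF6 had 1, and SRSF1 and SRSF3 had 0. At the last base of the 3p sequence SRSF3 had 1199 of 18515 tags, SRSF7 1048 of 37041, SRSF6 390 of 16714 and SRSF1 234 of 5152. Without the Mir302b to Mir367 cluster NXF1 still had 65 of 1019 tags at the first base of a 3p sequence, 54 in replicate 1, 0 in replicate 2 and 11 in replicate 3, and still 0 at the last. Those tags lay at other pluripotency precursors, 34 of them at Mir295.

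The tags inside loops followed the same hairpins, and those in the last 2 bases of a loop are also counted at the first base above. NXF1 had 217 of 892 tags in the loop in replicate 1 (24.3%, 95% Clopper-Pearson interval 21.5 to 27.3%), 42 of 342 in replicate 2 (12.3%, 9 to 16.2%) and 46 of 97 in replicate 3 (47.4%, 37.2 to 57.8%). These intervals cover counting error only. All 305 lay in pluripotency precursors, with 114 in Mir302b, 80 in Mir302d, 33 in Mir295, 25 in Mir302c, 21 in Mir367, 19 in Mir291a and 13 in Mir294. In the 25 SR libraries with at least 100 tags, the highest loop share was 9.66%, in SRSF5 replicate 1, and in the others it was at most 0.953%. The loop tags of the SR proteins were led by Mir224, a microRNA in an intron of Gabre, with 49 tags for SRSF2, 25 for SRSF6 and 7 for SRSF5. All loop tags of SRSF2 came from replicates 2 and 5, whose headers name SRSF1, and the lead of Mir224 rests on them.

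Over all precursors most tags lay 5′ of the 5p sequence in every library with at least 100 tags except SRSF7 replicates 1 and 3. That part includes the bases of the annotated hairpin before the 5p sequence. NXF1 replicate 3, with 97 tags, had 46.4% there. The share of tags 5′ of the 5p sequence was 61.9 and 74.3% in the 2 NXF1 libraries with at least 100 tags, 77.1 to 80.7% for SRSF1, 80.4 to 91% for SRSF2, 60.2 to 65.1% for SRSF3, 86.7 to 91.2% for SRSF4, 80.4 to 94.2% for SRSF5, 78.1 to 81.4% for SRSF6 and 17.3 to 86.1% for SRSF7. SRSF3 was thus the lowest of the SR proteins other than SRSF7, with no overlap with SRSF1, SRSF2, SRSF4, SRSF5 or SRSF6. Without the Mir302b to Mir367 cluster the NXF1 shares were 81.9 and 88.5%, those of SRSF3 61.9 to 66.9%, those of SRSF1 80.8 to 83.6% and those of SRSF7 22.3 to 86.1%. The share 3′ of the 3p sequence was 27.7 to 33.5% for SRSF3, 13.9 to 55.7% for SRSF7 and at most 18.7% in the libraries of every other protein. All these ranges cover only libraries with at least 100 tags. Below that limit the share was 87.0% in SRSF1 replicate 4 (23 tags) and 66.7% in SRSF7 replicate 5 (63 tags). It was 12.5% in SRSF2 replicate 3 (64 tags) and 1.03% in NXF1 replicate 3. These are descriptions of positions, and no test was run on them.

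**Figure D4:**
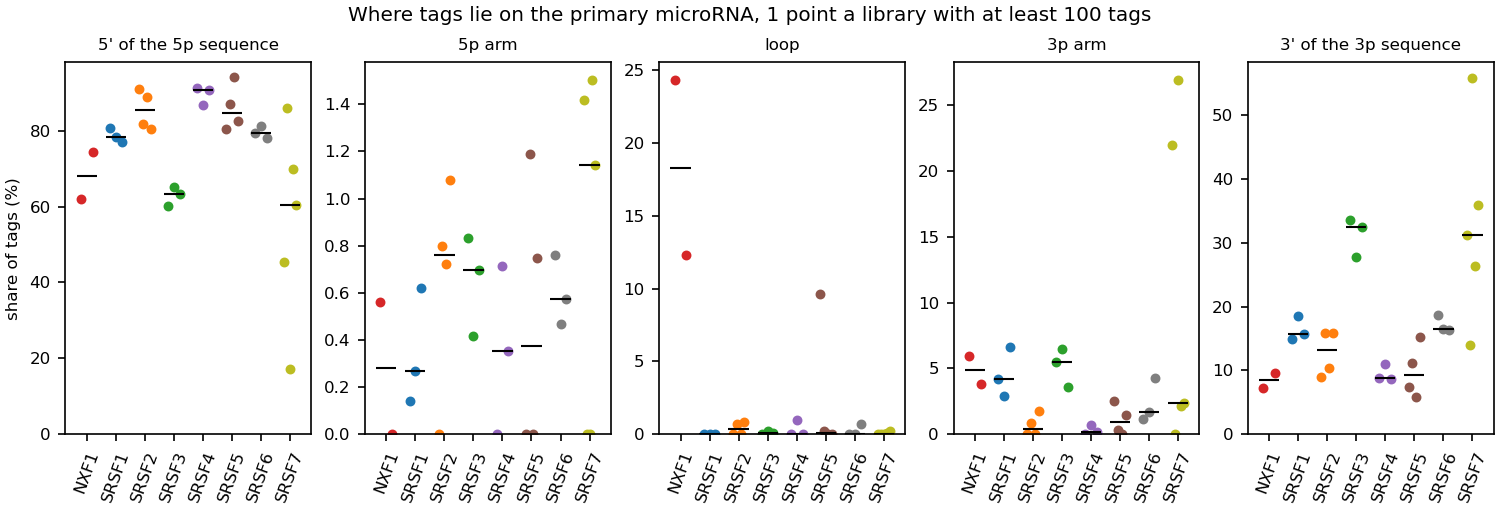
Share of tags (vertical axes, %) in 5 parts of the primary microRNA, from 5′ of the 5p sequence to 3′ of the 3p sequence, by protein (horizontal axes), with 1 point for each of the 27 libraries with at least 100 tags and a bar at the median. Axes are scaled separately. The NXF1 libraries stand out in the loop at 12.3 and 24.3%, and the SRSF3 libraries lie at 27.7 to 33.5% downstream.

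A gap separated the upstream flanking tags from the mature sequence. Upstream of the 5p sequence 3.04% of flanking tags lay at 1 to 20 nt and 66.1% at 21 to 60 nt, with the fullest bin at 31 to 40 nt (20.9%). Downstream of the 3p sequence 23.0% lay at 1 to 20 nt and 60.6% at 21 to 60 nt. Summed over the proteins, no gap of that width showed there. By bin, 4.87% lay at 1 to 10 nt, 18.2% at 11 to 20 nt, 30.3% at 21 to 30 nt and 16.9% at 31 to 40 nt. The upstream gap was present for each protein, since the share at 1 to 20 nt was at most 5.99% (SRSF4). On the downstream side the proteins differed. The share at 1 to 20 nt was 31.1% for SRSF7, 24.9% for SRSF3, 20.2% for NXF1, 16.9% for SRSF1 and 13.9% for SRSF2. It was 8.49% for SRSF6, 7.40% for SRSF4 and 4.73% for SRSF5, the last as low as the upstream shares. Of the tags inside a mature sequence, summed over the 31 libraries, 796 of 1010 in the 5p arm were in its first 2 bases and 2523 of 2981 in the 3p arm were in its last 2. NXF1 went the other way in the 3p arm, with 0 tags within 1 base of its last base.

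**Figure D5:**
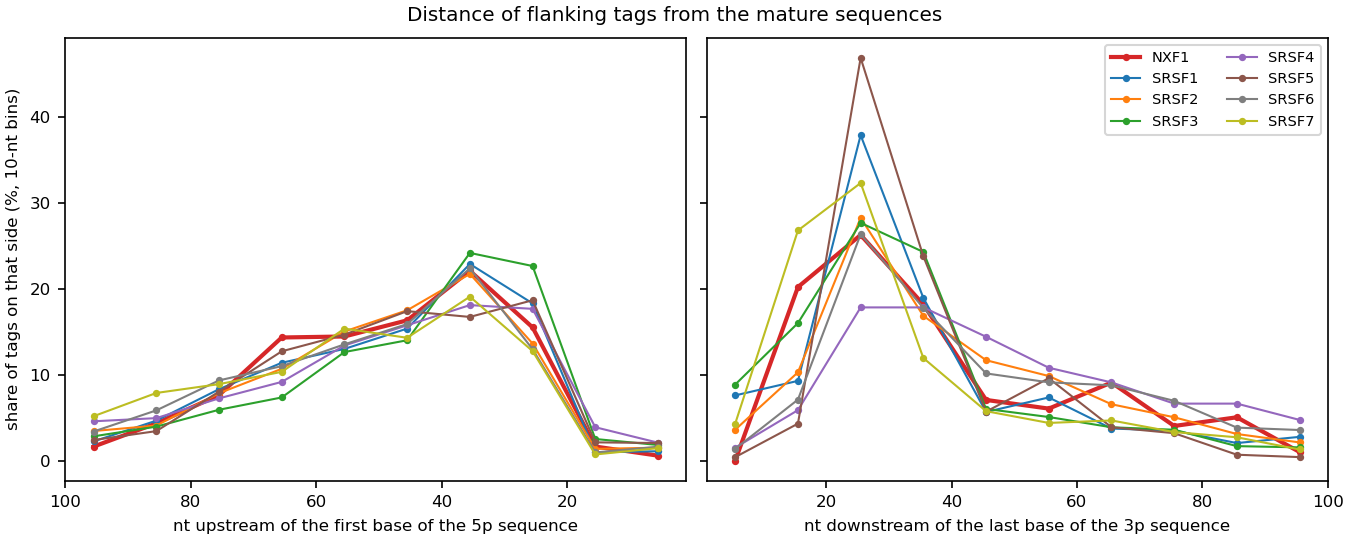
Share of flanking tags (vertical axis, % of the tags on that side) in bins of 10 nt by distance upstream of the first base of the 5p sequence (left) and downstream of the last base of the 3p sequence (right), summed over the libraries of each protein. Upstream, the 2 bins next to the mature sequence are nearly empty for all 8 proteins, and the profiles rise at 21 to 40 nt.

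The Mir290 to Mir295 cluster on chromosome 7 was bound by all 8 proteins and, unlike the Mir302 cluster, mainly in its flanks. It held 814 ± 651 CPM in NXF1 libraries (SD, n = 3), against means of 781 (SRSF4) to 2258 CPM (SRSF5) for the SR proteins. Inside the hairpins lay 81 of 477 NXF1 tags, and at most 3.18% of the tags of any SR protein. The tallest region was the 5′ flank of Mir291a (chr7:3218847-3218915), with 509, 470 and 27.6 CPM in NXF1 libraries and 0 to 2021 CPM (median 448) in SR libraries, 26 of 28 of which had tags. The region passed no comparison. Just downstream, the region inside the Mir292 hairpin (chr7:3219216-3219242) was higher with SRSF1, at 54.0, 44.7, 0 and 0 CPM, than with the other SR proteins (log2 difference 3.19 ± 0.92, limma adjusted p = 0.0158), but the call was lost without SRSF1 replicate 1 (limma adjusted p = 0.106) or replicate 2 (0.0982). SRSF5 replicate 1 had 56.1 CPM and NXF1 replicate 1 had 63.2 CPM there.

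SRSF1 was compared with the other 6 SR proteins at the same 79 regions. In this comparison 9 microRNA regions were higher, against 10.4% of all tested regions, and 3 were lower, against 6.83%. The region at AC122337.1 (Mir5099, chr12:37542833-37542922) had 279, 418, 1231 and 470 CPM in the SRSF1 libraries and at most 184 CPM in the 24 libraries of the other SR proteins. The groups did not overlap, the log2 difference was 3.49 ± 0.49 (limma adjusted p = 1.94e-05), and the call was never lost. Mir302b was higher with SRSF1 as well, at 91, 138, 345 and 0 CPM (3.82 ± 1.10, limma adjusted p = 0.0163), a call lost without SRSF1 replicate 2 (0.0573) or 3 (0.0745). The flanks of Mir101a and Mir374 were higher at log2 differences of 1.84 and 1.87, the first lost without SRSF1 replicate 1 or 3 (limma adjusted p = 0.0850 and 0.0634) and the second without any of replicates 1 to 3 (0.0833 to 0.124). A pair of regions in the transcript of Ddx5, an RNA helicase of the large Drosha complex, were lower with SRSF1. At AL603664.1 all 4 SRSF1 libraries were listed at 0, against 18 of the 24 other SR libraries with tags (limma adjusted p = 0.00253, and 0.109 without SRSF1 replicate 1). The region between the Mir19a and Mir20a hairpins had 1.42 CPM in 1 SRSF1 library and 0 in the others (limma adjusted p = 0.0154, and 0.160 without replicate 1).

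For SRSF3 against the other SR proteins, 8 microRNA regions were higher, against 18.5% of all tested regions, and 10 were lower, against 19.9%. Among all called regions 48.1% were higher, 71.0% with trimmed-mean scaling and 32.9% with coding-exon totals. The region between the Mir18 and Mir19a hairpins in Mir17hg, the primary transcript of the Mir17 cluster, had 318, 186 and 176 CPM with SRSF3. It was at 0 in all 4 SRSF5 libraries, at 0 in 4 of 5 SRSF2 libraries and 2.33 CPM in the fifth, at 0 to 31.3 CPM with SRSF1, at 0, 44.2 and 0 CPM with SRSF4, at 86.1, 78.8 and 63.7 CPM with SRSF6 and at 0 to 468 CPM (median 108) with SRSF7. SRSF7 replicates 1 and 3, with fewer than 50000 tags, alone lay above SRSF3. The log2 difference was 4.2 ± 0.86 (limma adjusted p = 0.000321), and no setting or left-out library ended the call. NXF1 had 12.6, 0 and 0 CPM there. The region is shown because it set the proteins apart more than any other of the Mir17 clusters, with CNNC matches in capitals. It lies at chr14:115443169-115443216 on the plus strand of mm9. It is labelled by Mir18 but is also a 5′ flank of Mir19a, whose hairpin begins at base 115443222.

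Mir18 3′ flank: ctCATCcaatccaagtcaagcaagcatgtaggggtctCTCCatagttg

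The same region differed in 4 other comparisons. It was higher with SRSF7 (log2 difference 2.5 ± 0.71, limma adjusted p = 0.0179) and with SRSF6 (2.41 ± 0.85, 0.0373). It was lower with SRSF2 (−4.37 ± 0.89, limma adjusted p = 0.00188), which without replicates 2 and 5 gave −2.22 and an adjusted p of 0.452, and with SRSF5 (limma adjusted p = 0.0186), for which all libraries were at 0. The SRSF7 call was lost without SRSF7 replicate 3 or 4 (limma adjusted p = 0.113 and 0.0642), the SRSF5 call without SRSF5 replicate 1 or 2 (0.0514 and 0.104) and the SRSF2 call without SRSF2 replicate 2 (0.167). The SRSF6 call was lost without SRSF1 replicate 2, SRSF5 replicate 2 or any SRSF6 replicate (0.0513 to 0.138). These comparisons share libraries, and the values of each protein are those given above.

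CNNC was searched on the transcript strand in bases 10 to 30 past the last base of each hairpin, where matches may overlap. It was present for 816 of all 1577 genes (51.7%), 65.9% of RefSeq-matched genes and 67.6% of the genes with a region in the 3′ flank. Mir18 had none in that window, and its matches above lie outside it. Of the SRSF3 tags in 3′ flanks of RefSeq-matched genes, 62.8% lay at genes with the motif, within the 60.9 to 75.3% of the other 7 proteins. The window was set from the end of the annotated hairpin, whose distance from the mature sequences differs between genes. It can therefore miss matches closer to the mature sequences, and tags were counted by gene, not by their distance to a match. These shares cannot show whether SRSF3 prefers the motif, which was not tested. A match of letters is no evidence of a bound site.

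At its other Mir17 cluster regions SRSF3 was higher at Mir19b-2 (chrX:50095119-50095179), with 220, 275 and 213 CPM, against 0 to 767 CPM in the other SR libraries, of which only SRSF7 replicates 1, 3 and 4 exceeded the lowest SRSF3 library (log2 difference 3.26 ± 0.90, limma adjusted p = 0.00472, a call that was never lost). NXF1 was at 0 there. SRSF3 was also higher at the region across the 3′ end of Mir20a, tallest 37 nt past the 3p sequence, at 867, 482 and 500 CPM (1.66 ± 0.63, limma adjusted p = 0.0358). Leaving out any SRSF3 replicate ended that call (0.0827 to 0.179). A region from the 3′ end of Mir15b into the Mir16-2 hairpin was higher too, at 217, 80.4 and 89.3 CPM (2.20 ± 0.75, limma adjusted p = 0.0209). It was tallest 39 nt past the Mir15b 3p sequence, and leaving out replicate 1 (0.158) or 3 (0.0540) ended the call. The region across the 5′ end of Mir423, in an intron of Ccdc55 and tallest 61 nt upstream of the 5p sequence, was lower, at 4.89, 7.43 and 4.10 CPM with SRSF3 and 0 to 57.5 CPM with the others (−2.28 ± 0.50, limma adjusted p = 0.000631, and 0.136 with trimmed-mean scaling). Other higher calls at AC123853.2 (Mir5114, in an exon of Scd2), AC122821.1 (Mir5125) and the unmatched AC151602.1 and AC133509.2 lie in host transcripts or outside RefSeq, and the AC123853.2 call was lost without SRSF3 replicate 1 or 2 (limma adjusted p = 0.0794 and 0.0624).

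Summed over its hairpins and their flanks, the Mir17 to Mir92-1 cluster held 173 ± 130 CPM with NXF1 (SD, n = 3), 1146 ± 419 CPM with SRSF3 (n = 3), 1251 ± 1076 CPM with SRSF7 (n = 6) and 251 to 559 CPM on average with the other SR proteins. The 3 SRSF3 libraries (888 to 1630 CPM) lay above all libraries of SRSF1, SRSF2, SRSF4, SRSF5 and SRSF6, whose highest was 808 CPM. No NXF1 tag fell in a hairpin of the 3 Mir17 clusters.

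SRSF7 was higher than the other SR proteins at 10 microRNA regions, against 7.28% of all tested regions, and lower at 3, against 4.48%. Among all called regions 61.9% were higher, 36.2% with trimmed-mean scaling and 46.1% with coding-exon totals. The region across the 3′ end of Mir19b-1 (chr14:115443601-115443640), whose tallest position lay 17 nt past the 3p sequence, had a lowest of 78.9, a median of 302 and a highest of 2035 CPM in the 6 SRSF7 libraries, and 0 to 336 CPM in the other SR libraries (log2 difference 4.17 ± 0.70, limma adjusted p = 0.000153). The groups overlapped, no left-out library ended the call, and among libraries with a 2014 run year it was not past the threshold (limma adjusted p = 0.106). Mir302b was higher at a median of 64.6 CPM (0 to 1941; 3.44 ± 0.95, limma adjusted p = 0.0159), which rested on SRSF7 replicate 3, without which it was 0.152, and without the 6 libraries under 50000 tags it was 0.0917. Mir302a (log2 difference 3.01) was lost without SRSF7 replicate 3, 4 or 6 (limma adjusted p = 0.0514 to 0.105) and Mir20b (2.53) without replicate 1, 3 or 4 (0.0588 to 0.204). A region that overlaps Mir16-1, AC154660.1 in the files, in an intron of Dleu2, was higher at 1.79 ± 0.54, a call lost without SRSF7 replicate 3, 4 or 6 (limma adjusted p = 0.0850 to 0.103). The Mir19b-2 call (2.18, limma adjusted p = 0.0404) was lost in 14 of 31 leave-one-out fits.

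Mir1983 (chr13:21988748-21988898) separated the SR proteins in both directions. SRSF5 had 1531, 981, 884 and 510 CPM, and it was higher than the other SR proteins (log2 difference 3.51 ± 0.83, limma adjusted p = 0.00252, never lost). SRSF6 had 8.61, 10.4 and 7.55 CPM in its 3 libraries and was lower (−4.25 ± 0.92, limma adjusted p = 0.000891, never lost). SRSF2 had 1897, 470, 539, 774 and 261 CPM and was higher (2.92 ± 0.76, limma adjusted p = 0.0145), but not without the replicates 2 and 5 (0.0678), replicate 1 (0.0579) or replicate 2 (0.0588). SRSF7 was at 0 in 4 of 6 libraries with a highest of 200 CPM, and it was lower (−4.04 ± 0.93, limma adjusted p = 0.00404, and 0.239 without SRSF7 replicate 6). NXF1 had 198, 28.5 and 258 CPM, and the control 0 tags.

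In the SRSF5 comparison 4 microRNA regions were higher, against 10.4% of all tested regions, and 5 were lower, against 23%. With coding-exon totals 65.6% of all called regions were higher with SRSF5, against 31.1% with totals of listed tags. In the SRSF6 comparison 1 was higher, against 19%, and 6 were lower, against 5.14%. With coding-exon totals 39.8% of all called regions were higher with SRSF6, against 78.7% with totals of listed tags. SRSF4 was higher at 3 regions, against 9.2%, and lower at 0, against 0.887%, none of the 3 at a RefSeq-matched gene, with the lowest limma adjusted p at AC127323.1 (0.00377, and 0.0856 without SRSF4 replicate 3). At an unadjusted limma voom p under 0.05, 6 regions were lower with SRSF4, and limma-trend called 1 lower. SRSF2 was higher at 1 region, against 1.65%, and lower at 2, against 5.2%, which were Mir18 and Mir302b. At Mir302b 4 SRSF2 libraries were at 0 and replicate 5 at 1.86 CPM (limma adjusted p = 0.0415, and 0.676 without replicates 2 and 5).

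The imprinted Meg3-Mirg cluster on chromosome 12, which the maternal chromosome expresses, held 3 of the 10 lower calls of SRSF3 and 3 of the 6 of SRSF6, and higher calls of SRSF1, SRSF5 and SRSF7. It has 52 microRNA genes in the annotation, 35 of which had a region, with 41 regions, 6884 tags and 0 control tags, and 3 regions were tested. Within 100 nt of its hairpins NXF1 had 396, 57.0 and 46.0 CPM. SRSF1 had 355, 333, 115 and 0 CPM, SRSF5 104, 291, 119 and 243 CPM, and SRSF4 0, 56.0 and 0 CPM. SRSF7 had 1015 CPM in replicate 4 and 313 CPM in replicate 6 and none in the other 4 libraries, each with at most 54936 listed tags. SRSF2 had 254 and 319 CPM in replicates 2 and 5, whose headers name SRSF1, and 0 in the other 3. SRSF3 had 2, 0 and 0 tags and SRSF6 had 3, 0 and 3 tags, although both had at least 409282 listed tags in every library. The proteins were expressed in separate clonal lines, so that silencing of the locus in a line and a lack of binding cannot be told apart.

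The 3 tested regions followed these totals. The 5′ flank of Mir410 (chr12:110981868-110981917), in an exon of Mirg, was at 0 in all SRSF3 and all SRSF6 libraries, at 56.9, 69.0, 0 and 0 CPM with SRSF1, at 72.1, 39.8, 0 and 27.9 CPM with SRSF5 and at 0 to 57.6 CPM with SRSF7. SRSF3 was lower than the other SR proteins at a limma adjusted p of 0.00689, which no setting or left-out library ended, and SRSF6 at 0.00968, which was lost without SRSF6 replicate 1 (0.0633) or 3 (0.0530). Since both groups are at 0, no fold is given. SRSF1, SRSF5 and SRSF7 were higher, at log2 differences of 2.71, 2.71 and 2.42. The SRSF1 call was lost without SRSF1 replicate 1 or 2 (limma adjusted p = 0.0727 and 0.0802) and the SRSF7 call without SRSF7 replicate 4 or 6 (0.162 and 0.0846), while the SRSF5 call was kept in every leave-one-out fit but not with no CPM minimum (0.0700) or at matched depth (0.579). Flanks of Mir485 and Mir495 were also at 0 with SRSF3 and SRSF6 and at 143 and 122 CPM in SRSF7 replicate 4. Mir495 was higher with SRSF7 (log2 difference 3.67 ± 0.81, limma adjusted p = 0.00298), and this call was kept in every leave-one-out fit but not with trimmed-mean scaling (0.0529) or among libraries with a 2013 run year (0.559). At both flanks the SRSF3 calls were lost without any SRSF3 replicate (limma adjusted p = 0.0563 to 0.112) and the SRSF6 calls without any SRSF6 replicate (0.0882 to 0.153). The SRSF5 calls were lost without SRSF5 replicate 2 or 4 (limma adjusted p = 0.0648 to 0.160), and also without some SRSF3, SRSF4 or SRSF6 libraries (0.0503 to 0.0600). The SRSF1 call at Mir495 was lost without SRSF1 replicate 2 (limma adjusted p = 0.0571), and the SRSF7 call at Mir485 without SRSF7 replicate 4 or 6 (0.0846 and 0.0670). The long noncoding host RNAs were also low for SRSF3 and SRSF6. Meg3, Rian and Mirg each held 0 tags with SRSF3, and 2, 4 and 0 tags with SRSF6. With SRSF1 they held 1163, 2169 and 209 tags. Other libraries parted from this: SRSF7 replicates 2 and 3 had 1584 and 1216 CPM at Meg3 and no tag near the microRNAs. The host RNAs were counted over their whole span, so that tags of the Mir410 flank are also counted for Mirg. The part of the host RNAs in the result was not tested.

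The miR-7 genes held few tags, unlike the let-7 family and the miR-15 and miR-16 genes. Of 10 let-7 genes 7 had a region, with 3827 tags in all, and 2457 of those were at Mirlet7a-1, whose 5′ flank had 80.0, 42.7 and 0 CPM with NXF1 and 0 to 334 CPM (median 89.2) with the SR proteins. Every let-7 tag near Mirlet7a-1 lay outside its hairpin. Mir7-1 was the only one of 3 miR-7 genes with a region, at 104 tags, and SRSF1 and NXF1 had none there. All 5 miR-15 and miR-16 genes had a region, 3363 tags in all, 1984 of them at Mir15b within Smc4, and SRSF3 averaged 188 ± 68.0 CPM over the family (SD, n = 3) and SRSF7 240.1 ± 334 CPM (n = 6), while NXF1 averaged 34.7 ± 33.7 CPM (n = 3) and the other SR proteins 63.5 to 92.0 CPM.

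At precursors inside coding genes, tags of the precursor and tags of the host RNA cannot be told apart. Of the 327 regions at RefSeq-matched genes 72 lay in an exon of a protein-coding gene, 12 of them among the 59 tested. Mir106b, Mir93 and Mir25 lie within Mcm7, and the region that spans from Mir106b into Mir93 had 156, 171 and 46.0 CPM with NXF1 and 0 to 1457 CPM (median 255) with the SR proteins, passing no comparison. The region at Mir298 (chr2:174093072-174093307), in no annotated host, had 240, 164 and 120 CPM with NXF1 and 0 to 1227 CPM (median 308) with the SR proteins, 27 of 28 of which had tags, and it passed no comparison either.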

How the data were processed

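iCLIP tags of 31 libraries (8 GFP-tagged proteins, P19 cells) and 1 pooled control were analysed. The authors deposited, per library, the count of distinct cDNAs (tags) at each base of mm9 that passed a false discovery rate of 0.05 (100 permutations, 15-nt neighbourhood, Ensembl 59 segments), and pooled clusters per protein. CASAVA 1.4 stands in the submitters' processing notes, with no aligner: not given in the sources used here. Totals of these tags are not sequencing depth. The pooled clusters of SRSF2, SRSF3 and SRSF6 came from 1 library each.

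The 8 cluster lists were merged on the same strand (gap of at most 30 nt), and regions overlapping, or within 100 nt of, a same-strand GENCODE vM1 microRNA gene were kept. Tags were summed per region and scaled by library totals. Because unlisted positions are not zeros of a full count table, limma voom (limma 3.58.1, R 4.3.3) was fitted to all 6649 regions with at least 42.1 CPM in 3 libraries and 15 tags in all, with Benjamini-Hochberg adjustment over all of them. Each SR protein was set against the mean of the other 6, NXF1 against the mean of the 7. The control entered no test. The study calls its replicates biological, and the lines were clonal. Scripts used Python 3.11.15 and were tested on simulated data.

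Named microRNAs were those with an adjusted p under 0.05 (at most 10 a comparison), the 12 regions of highest mean CPM, and members of fixed families. The members and lists were chosen with earlier results of these data known. Mature sequences (RefSeq, GRCm38.p6) were located in mm9 by exact match. Alternatives covered scaling, CPM minimum, limma-trend, a replicate block, matched depth, run year and each library left out.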

Additional observations from a re-analysis of the deposited data

Results flagged for a closer look

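In 16 of 84 groups of 4 to 6 libraries, 1 library stood apart from the rest by Dixon's test, which chance does in about 1 of 20 groups. No explanation was tested.

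Among SRSF1 libraries, replicate 3 was highest at Mir17 to Mir92-1, with 609.7 CPM, and replicate 4 was lowest at Mir106a to Mir363, with 0 CPM. Among SRSF2 libraries, replicate 1 was highest at Mir290 to Mir295 (3047 CPM) and at the Mir291a flank (2021 CPM), replicate 3 was lowest at Mir106b to Mir25 (101.1 CPM), and replicate 5 alone had tags at Mir302b (1.863 CPM).

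SRSF5 replicate 1 was highest at Mir302b to Mir367 (561.0 CPM), at the Mir302b region (192.3 CPM) and in its loop share (9.66%), and lowest at Mir17 to Mir92-1 (392.7 CPM). Among SRSF7 libraries, replicate 1 was highest at Mir106b to Mir25 (1687 CPM), at the region from Mir106b into Mir93 (1457 CPM) and at the Mir291a flank (1841 CPM), replicate 2 at Mir1983 (200.2 CPM), replicate 3 at the region across the 3′ end of Mir20b (4023 CPM) and replicate 4 at Mir293 (138.8 CPM). SRSF7 replicates 1 and 3 and SRSF2 replicates 1 and 3 held fewer than 50000 tags.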

How the results depend on the processing

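Of the 74 calls named, 18 were kept in all 31 fits that left out 1 library, and 10 were lost in no fit. The cause of each change below was not tested. The counts of microRNA regions called, 16 for NXF1, 12, 3, 18, 3, 9, 7 and 13 for SRSF1 to SRSF7, changed by more than 1.5 times as follows. With trimmed-mean scaling they were 5 (NXF1), 3 (SRSF1), 0 (SRSF4), 5 (SRSF5) and 2 (SRSF7). With coding-exon totals they were 23 (SRSF1), 7 (SRSF2), 28 (SRSF3), 9 (SRSF4), 36 (SRSF5) and 19 (SRSF6). With 0.5 of the CPM minimum they were 32 (SRSF3), 1 (SRSF4), 15 (SRSF5), 17 (SRSF6) and 21 (SRSF7), with 2 times the minimum 9 (SRSF3), 5 (SRSF4) and 4 (SRSF6), and with none 5 (NXF1), 6 (SRSF1), 1 (SRSF2), 36 (SRSF3), 0 (SRSF4), 3 (SRSF5), 4 (SRSF6) and 37 (SRSF7). With limma-trend they were 31 (NXF1), 6 (SRSF1) and 0 (SRSF2). Without SRSF2 replicates 2 and 5 they were 0 (SRSF2) and 1 (SRSF4), at matched depth 7 (SRSF4), in 2013 libraries 1 (SRSF2) and 5 (SRSF7), and in 2014 libraries 13 (SRSF4). With libraries of at least 50000 tags, an alternative chosen after seeing the data, they were 6 (SRSF2) and 7 (SRSF4). At matched depth 3 SRSF5 values changed sign, Mir495 to −1.01, Mir485 to −0.39 and Mir18 to 0.15 on the log2 scale.

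Leaving out each library in turn gave 6 to 18 regions for NXF1, 4 to 14 for SRSF1, 0 to 6 for SRSF2, 7 to 20 for SRSF3, 0 to 5 for SRSF4, 4 to 11 for SRSF5, 1 to 8 for SRSF6 and 5 to 16 for SRSF7. Replicate numbers are shared between groups only as names: deviations of 91 same-numbered pairs correlated at −0.41 to 0.52, and 28 exceeded 0.1. With the replicate block the counts were 13 (NXF1), 11, 2, 18, 1, 6, 8 and 4 (SRSF1 to SRSF7). The block ended the NXF1 call at Mir302d (log2 difference 4.35, limma adjusted p = 0.0503). Scaling moved the median log2 difference over all regions, which was −1.03 for NXF1, to −1.19 (trimmed-mean) and 0.28 (coding-exon totals), and that of SRSF3, −0.23, to 0.63 and −0.78. The selection gave 97 regions when only overlap counted, against 429, and 370 and 536 within 50 and 200 nt. Libraries under 50000 tags limit what their 0 values show.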
